A study of Mus musculus with 21 samples.

Results

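The testis-specific serine kinases are a small family of protein kinases, encoded in the mouse by *Tssk1* to *Tssk6*. All 6 genes were found by symbol among the 24456 genes of the deposited read counts, and all 6 were followed through 21 RNA-seq libraries. The libraries came from fractionated spermatogenic cells of wild-type mice and of mice lacking *H2al2* (*H2al2* KO), the gene of the spermatid histone variant H2A.L.2. Pachytene spermatocytes (meiotic prophase), round spermatids (early haploid cells) and condensing spermatids (haploid cells whose chromatin is being compacted) had 3 wild-type and 3 *H2al2* KO replicates each. Of spermatozoa there were 2 wild-type libraries and a single one of the *H2al2* KO. The labels give no strain, age or further treatment. The study calls the wild-type round spermatid libraries biological replicates, but the labels do not tie any library to an animal, so that p-values measure the spread between these libraries, which may in part be technical.

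These kinases belong to the branch of the kinase tree that also holds AMP-activated kinase, and they are known almost entirely from spermatids and spermatozoa. TSSK1 and TSSK2 bind and phosphorylate TSKS, and male mice without both kinases are sterile. TSSK6 is activated through HSP90 with the co-chaperone TSACC, and its loss leaves sperm chromatin poorly condensed and males sterile. TSSK4 phosphorylates ODF2, a protein of the outer dense fibres of the sperm tail, and TSSK3 is needed for spermiogenesis. Less is known of TSSK5.

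The genes lie on 5 chromosomes (mm10, RefSeq spans). *Tssk1* (chr16:17894203-17895653, plus strand) and *Tssk2* (chr16:17898637-17900024, plus strand) are neighbours, each of 1 exon, with 2984 bases between them. *Tssk6* (chr8:69902184-69903518, plus strand) also has 1 exon. *Tssk3* (chr4:129489008-129491730, minus strand) has 2 exons, *Tssk4* (chr14:55643651-55652539, plus strand) 4 and *Tssk5* (chr15:76371958-76375191, minus strand) 8. The coding sequences of *Tssk1* and *Tssk2* aligned with 76.4% identity, whereas the other 14 pairs lay between 45.5% and 55.5%. *Tssk1* and *Tssk2* shared 75 of their 75-base stretches (5.53% and 5.71% of each gene), and reads aligned to both places were not counted, since multiply aligned reads were left out. The ends of *Tssk3*, *Tssk4* and *Tssk6* overlap *Fam229a* (541 bases), *Tm9sf1* (156 bases) and *Ndufa13* (375 bases) on the opposite strand, and the authors counted with strand.

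The 120 bases before the transcription start are shown for the 3 members whose window lies outside the annotated span of the gene (GRCm38.p6, the same assembly as mm10, 5′ to 3′ in the direction of the gene). Capitals mark matches, on either strand, to TGACNTCA (the cyclic AMP response element TGACGTCA with any base for its inner G) and to its part TGACG.
*Tssk1*, chr16:17894083-17894202, plus strand: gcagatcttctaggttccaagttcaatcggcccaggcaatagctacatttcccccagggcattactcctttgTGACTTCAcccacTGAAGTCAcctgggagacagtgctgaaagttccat
*Tssk2*, chr16:17898517-17898636, plus strand: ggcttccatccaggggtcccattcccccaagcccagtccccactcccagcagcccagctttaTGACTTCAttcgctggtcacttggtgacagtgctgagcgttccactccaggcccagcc
*Tssk6*, chr8:69902064-69902183, plus strand: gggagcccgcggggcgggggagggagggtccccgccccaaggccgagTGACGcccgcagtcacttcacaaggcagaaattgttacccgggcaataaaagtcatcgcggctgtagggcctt
The *Tssk1* window held TGACTTCA and then TGAAGTCA, which matches when read on the other strand, with first printed bases 48 and 35 bases before the start. *Tssk2* held TGACTTCA 58 bases before its start, and *Tssk6* held TGACG at 73. Within 120 bases, TGACNTCA occurred in 5.07% and TGACG in 11.7% of the 32851 promoters of the table. The full TGACGTCA and the TATA box letters TATAAA were also looked for. Neither was found in the 3 windows, and they occurred in 1.24% and 6.34% of the promoters. The longest run common to the *Tssk1* and *Tssk2* windows was gacagtgctga, 11 bases, at 20 and 33 bases before the start. For *Tssk1* alone of the 3, the bases just after this start were not wholly contained in its transcript in a second annotation. Its distances thus depend on the start used. These matches describe letters only, and binding was not measured. The windows that the table gives for *Tssk3* and *Tssk4* lie inside the annotated spans of these genes and are not shown, and *Tssk5* was not in the table.

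Levels are given as CPM: reads on the gene per 1000000 reads on all genes, after TMM scaling over the 21 libraries. Reads on genes ranged from 2772995 to 8201682 per library, and 3 reads, the most that a count of 0 allows, corresponded to 0.366 to 1.08 CPM. These limits cover counting error only. The summed CPM of 8 round spermatid markers was highest in round spermatids (1173 to 1385, against 349 to 536 in pachytene spermatocytes and 580 to 751 in condensing spermatids). The sums of 8 pachytene markers overlapped between pachytene spermatocytes (919 to 1984), round spermatids (762 to 993) and condensing spermatids (913 to 1074). Wild-type pachytene replicate 2, at 919, lay below wild-type round replicates 2 and 3 (957 and 954). *H2afb1*, the name of the *H2al2* gene in the files, averaged 206 CPM in wild-type and 23.8 CPM in *H2al2* KO round spermatids. Wild-type round replicates 2 and 3 differed by little more than sampling noise (mean chi-square of 1.06 per gene, where sampling alone gives 1, p = 0.00072 over 5617 genes), while 18 other replicate pairs had 1.90 to 12.2. They were kept as separate libraries, and results that change with the pair summed are given as such. Because these are bulk fractions, fewer cells of a type and less RNA per cell cannot be told apart. CPM is a share of the reads of a library, so that a higher CPM need not mean more RNA per cell.

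All 6 kinase genes were several-fold higher in round spermatids than in pachytene spermatocytes, and then they parted. *Tssk3* and *Tssk6* rose further in condensing spermatids, *Tssk2* stayed within its spread, and *Tssk1*, *Tssk4* and *Tssk5* fell. *Tssk6* alone among the 6 was higher again in wild-type spermatozoa.

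**Figure D1:**
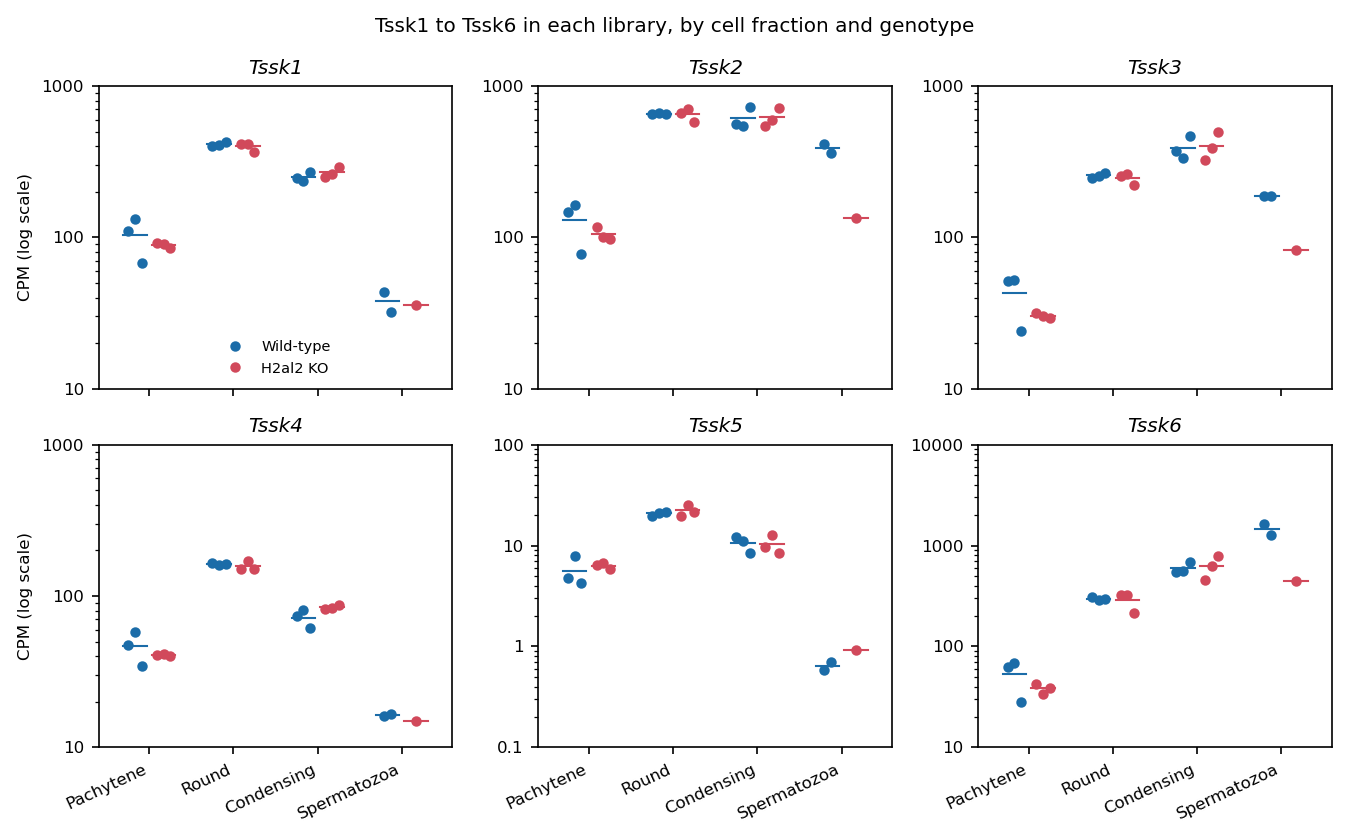
Level of each kinase gene in every library, in CPM on a log axis whose range differs between panels, by cell fraction (x axis) and genotype (colour). Points are libraries and lines are group means. All 6 genes are lowest in pachytene spermatocytes or spermatozoa, *Tssk6* is highest in wild-type spermatozoa, and the 3 spermatozoa values of *Tssk5* rest on 2 or 3 reads each.

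*Tssk1* and *Tssk2* are taken first, the neighbouring pair that acts on TSKS. *Tssk1* measured 110, 133 and 67.5 CPM in wild-type pachytene replicates 1, 2 and 3, and 402, 408 and 424 CPM in wild-type round spermatids. Wild-type condensing spermatids had 247, 235 and 271 CPM, and wild-type spermatozoa 43.4 and 31.9 CPM. The 4 fractions did not overlap, with the peak in round spermatids. *Tssk2* measured 148, 164 and 78.2 CPM in wild-type pachytene spermatocytes and 650, 664 and 651 CPM in round spermatids. It then stood at 559, 542 and 730 CPM in wild-type condensing spermatids and, in spermatozoa, at 415 and 359 CPM. Its round and condensing values overlapped, and both spermatozoa lay below them. There were thus 1.54 to 1.63 *Tssk2* reads per *Tssk1* read in wild-type round spermatids, 2.27 to 2.69 in condensing spermatids and 9.56 to 11.3 in spermatozoa, although the genes are adjacent.

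*Tssk3* measured 51.7, 52.6 and 23.9 CPM in wild-type pachytene spermatocytes and 248, 255 and 267 CPM in round spermatids. It was at 373, 332 and 465 CPM in wild-type condensing spermatids and at 188 and 188 CPM in spermatozoa. Condensing spermatids were highest and did not overlap any other fraction. *Tssk6* measured 62.7, 68.5 and 28.0 CPM in wild-type pachytene spermatocytes and 307, 288 and 297 CPM in round spermatids. It reached 542, 562 and 685 CPM in wild-type condensing spermatids and 1617 and 1282 CPM in spermatozoa. Its level was thus higher in each fraction than in the one before, with no overlap.

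*Tssk4*, the kinase of ODF2, measured 47.3, 57.8 and 34.6 CPM in wild-type pachytene spermatocytes and 165, 160 and 163 CPM in round spermatids. In wild-type condensing spermatids it measured 73.5, 80.5 and 61.3 CPM, and in spermatozoa 16.0 and 16.6 CPM. The peak in round spermatids stood clear of the other fractions. *Tssk5* was the scarcest member, at 4.81, 7.89 and 4.25 CPM in wild-type pachytene spermatocytes and 19.6, 21.1 and 21.6 CPM in round spermatids. In wild-type condensing spermatids it measured 12.2, 11.2 and 8.43 CPM, the last of these on 48 reads. Wild-type spermatozoa held 2 *Tssk5* reads per library, which is within the limit of a count of 0.

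From pachytene spermatocytes to round spermatids, all 6 members were called higher in wild-type (edgeR's quasi-likelihood test, Benjamini-Hochberg adjusted p below 0.05 over all genes tested). In this comparison 34.4% of 14011 genes were called higher and 35.9% lower. The rise was 6.12-fold for *Tssk3* (95% confidence interval 4.25 to 8.81), 5.72-fold for *Tssk6* (3.93 to 8.34) and 5.16-fold for *Tssk2* (3.66 to 7.26). It was 4.06-fold for *Tssk1* (3.04 to 5.43), 3.72-fold for *Tssk5* (2.71 to 5.12) and 3.56-fold for *Tssk4* (2.78 to 4.56). In wild-type the intervals of the 6 genes overlapped, and the largest edgeR adjusted p was 3.6e-06, for *Tssk5*. The median log2 fold change of the 6 was 2.19, against -0.02 over all genes tested. The *H2al2* KO libraries, fitted on their own, also called all 6 higher, where 36.5% of 13877 genes were. The rises there were 8.04-fold for *Tssk3* (95% confidence interval 6.58 to 9.82), 7.38-fold for *Tssk6* (5.70 to 9.55) and 6.13-fold for *Tssk2* (5.14 to 7.31). They were 4.47-fold for *Tssk1* (3.85 to 5.18), 3.84-fold for *Tssk4* (3.32 to 4.44) and 3.50-fold for *Tssk5* (2.67 to 4.58). The intervals of *Tssk3* and *Tssk6* lay above those of *Tssk1*, *Tssk4* and *Tssk5*. In wild-type pachytene spermatocytes, replicate 3 was lowest for every member, and the summed level of 8 elongating spermatid markers was 2230 CPM in that library, against 5509 and 5233 CPM in replicates 1 and 2. From wild-type pachytene spermatocytes to round spermatids, these markers went to 26630 to 29406 CPM, 4 peritubular myoid markers from 54.1 to 94.9 CPM to 328 to 335 CPM, and 5 macrophage markers from 1.91 to 3.61 CPM to 16.2 to 19.9 CPM. The part of these cells in the values of the kinases was not tested.

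From round to condensing spermatids, the family divided in both genotypes. In wild-type, where 28.3% of genes were called higher and 21.8% lower, *Tssk6* rose 2.04-fold (1.43 to 2.91, adjusted p = 0.00315 by edgeR) and *Tssk3* 1.55-fold (1.10 to 2.17, adjusted p = 0.0334). *Tssk1* fell by 0.69 (SE 0.19), *Tssk5* by 0.94 (SE 0.20) and *Tssk4* by 1.15 (SE 0.16) on the log2 scale, with edgeR adjusted p of 0.00865, 0.00205 and 0.000107. *Tssk2* was not called (log2 fold change -0.08, 95% confidence interval -0.54 to 0.39). The call of *Tssk3* was lost without condensing replicate 1 or 3 or any 1 round replicate (edgeR adjusted p 0.0636 to 0.132), and with round replicates 2 and 3 summed (0.0816), while its 3 condensing values still lay above its 3 round values. In the *H2al2* KO the same 2 members were called higher and the same 3 lower, where 29.7% and 24.5% of genes were. There *Tssk6* rose by 1.14 and *Tssk3* by 0.72 on the log2 scale (edgeR adjusted p 8.87e-06 and 6.48e-05), and the log2 fold changes of *Tssk1*, *Tssk4* and *Tssk5* were -0.56, -0.89 and -1.09. Sertoli markers moved with this step, all 8 being found, from a summed 26.4 to 52.0 CPM in round spermatids to 397 to 560 CPM in condensing spermatids of both genotypes. Leydig cell markers, 6 of 6 found, went from a summed 5.90 to 12.6 CPM to 75.6 to 199 CPM, and 5 red blood cell markers from 0.417 to 1.95 CPM to 18.4 to 25.8 CPM, with *Hbb-bt* and *Hba-a1* at 0. Elongating spermatid markers overlapped between the fractions, at a summed 23787 to 30684 CPM in round spermatids and 26338 to 39572 CPM in condensing spermatids of both genotypes. The part of any of these cells in the changes was not tested.

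In wild-type spermatozoa against condensing spermatids, *Tssk6* was called higher, 2.51-fold (1.97 to 3.19), and the other 5 members lower, where 36.6% of 15116 genes were called higher and 35.8% lower. *Tssk2* fell by 0.61 on the log2 scale, *Tssk3* by 1.01, *Tssk4* by 2.09 and *Tssk1* by 2.68. The call of *Tssk2* was lost without spermatozoa replicate 2 (edgeR adjusted p = 0.0865, log2 fold change -0.50). For *Tssk5*, 4 reads in both spermatozoa libraries together stood against 204 in condensing spermatids, a ratio of 0.0600 relative to reads on all genes (95% exact counting interval 0.0162 to 0.156). Markers of other cells moved with this step: 6 epididymis epithelium markers summed to 1799 and 1904 CPM there and to at most 1.76 CPM in wild-type condensing spermatids, although *Lcn5* and *Lcn8* were at 0, and 5 macrophage markers summed to 242 and 245 CPM against 20.5 to 25.2. How far this shifts the values of the kinases was not tested.

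**Figure D2:**
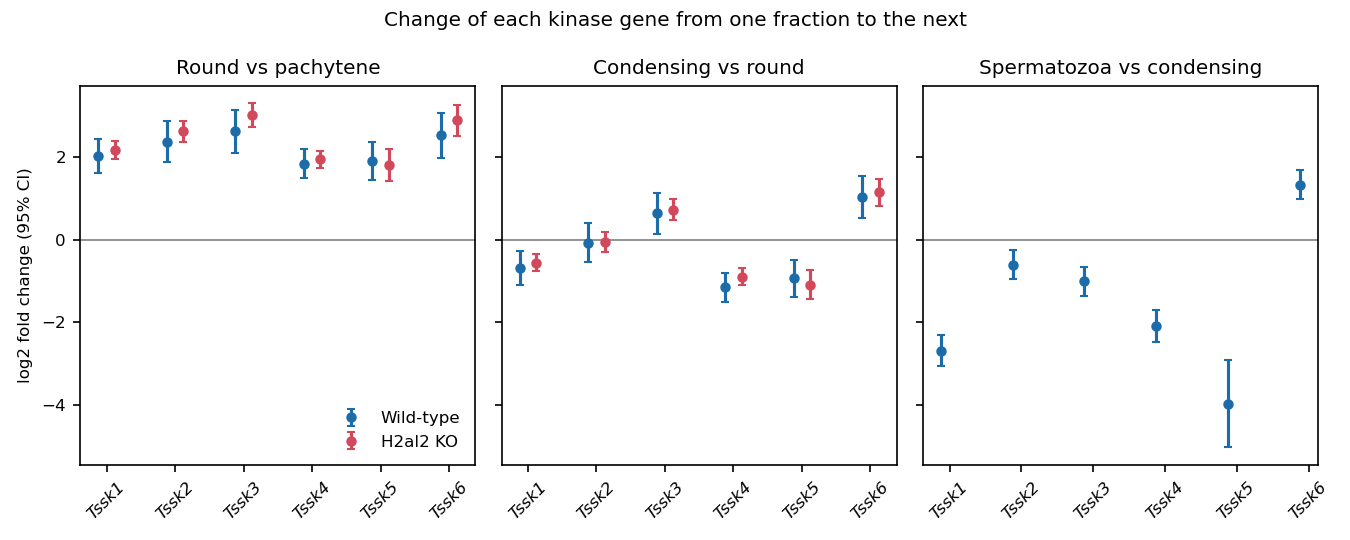
Log2 fold change of each kinase gene between successive fractions, with 95% confidence intervals from edgeR, for wild-type and *H2al2* KO (the spermatozoa step in wild-type only, 2 against 3 libraries). All 6 genes lie above 0 at the first step, *Tssk3* and *Tssk6* lie above 0 and *Tssk1*, *Tssk4* and *Tssk5* below 0 at the second, and *Tssk6* is the only one above 0 at the third. The interval of *Tssk5* at the third step rests on 4 spermatozoa reads.

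To compare members with each other, CPM was divided by exonic length in kb. In wild-type round spermatids the order was *Tssk2* (472 ± 5 CPM per kb, SD, n = 3), *Tssk1* (283 ± 8), *Tssk6* (223 ± 7), *Tssk3* (200 ± 8), *Tssk4* (114 ± 2) and *Tssk5* (13.7 ± 0.7), and no neighbours in this order overlapped. In wild-type condensing spermatids *Tssk6* (447 ± 58 CPM per kb, SD, n = 3) and *Tssk2* (440 ± 75) overlapped at the top, above *Tssk3* (305 ± 53), *Tssk1* (173 ± 13), *Tssk4* (50.6 ± 6.8) and *Tssk5* (6.98 ± 1.27). In wild-type spermatozoa *Tssk6* had a mean of 1086 CPM per kb, *Tssk2* 279, *Tssk3* 147, *Tssk1* 26.0, *Tssk4* 11.5 and *Tssk5* 0.42, again with no overlap between neighbours. In wild-type pachytene spermatocytes *Tssk2* (93.7 ± 32.9 CPM per kb, SD, n = 3), *Tssk1* (71.4 ± 23.0), *Tssk6* (39.7 ± 16.4), *Tssk3* (33.4 ± 12.8) and *Tssk4* (32.8 ± 8.2) each overlapped the next, and only *Tssk5* (3.72 ± 1.29) stood apart. The order was the same per kb of coding sequence in these 4 groups.

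The summed level of the family overlapped between round and condensing spermatids and between condensing spermatids and spermatozoa, while the shares of *Tssk1* and *Tssk6* moved apart without overlap. The 6 genes together had 170 to 348 CPM per kb in wild-type pachytene spermatocytes, 1298 to 1321 in round spermatids, 1297 to 1638 in condensing spermatids and 1400 to 1698 in spermatozoa. *Tssk1* made up 24.8% to 27.4% of this sum in wild-type pachytene spermatocytes, 21.4% to 22.1% in round spermatids, 11.4% to 12.8% in condensing spermatids and 1.57% to 1.76% in spermatozoa. *Tssk6* made up 12.4% to 15.3%, 16.6% to 17.7%, 30.5% to 32.4% and 68.6% to 71.3% in the same fractions. *Tssk2* held between 33.2% and 36.8% up to round spermatids, 30.1% to 32.1% in condensing spermatids and 17.6% to 18.5% in spermatozoa. *Tssk3* was at its largest share in wild-type condensing spermatids (20.0% to 22.2%).

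**Figure D3:**
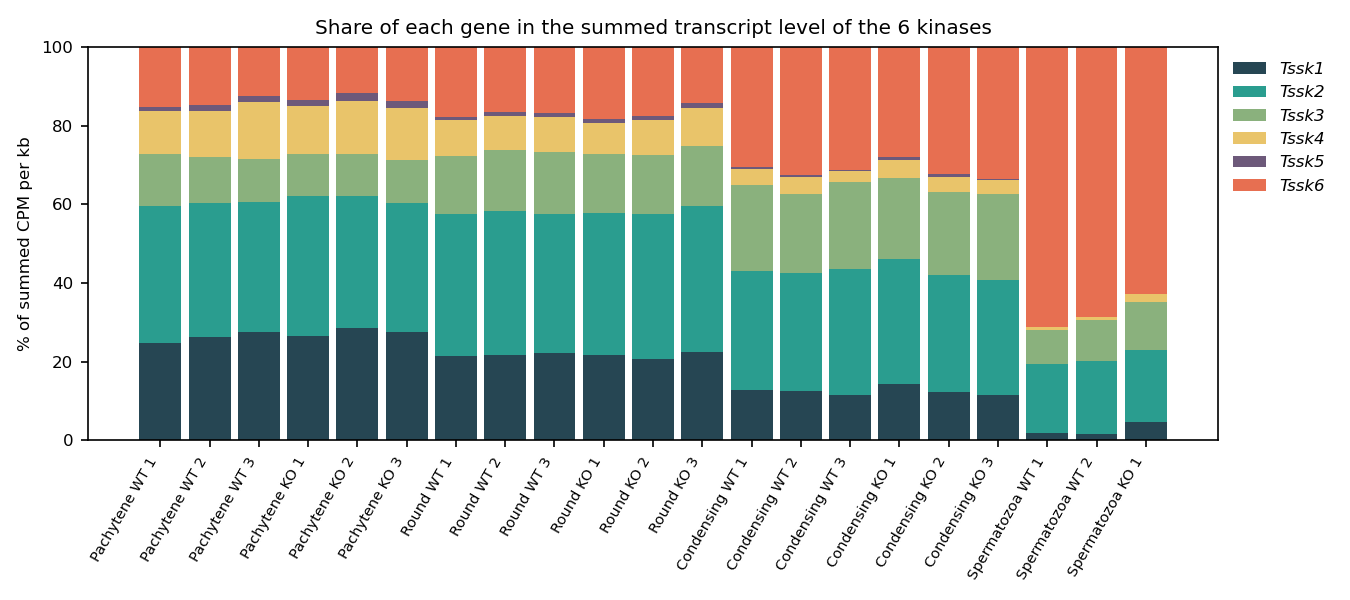
Share of each kinase gene in the summed CPM per kb of the 6 genes, 1 stacked bar per library, ordered by fraction and genotype. The *Tssk6* share widens from 12.4% to 15.3% in wild-type pachytene spermatocytes to 68.6% to 71.3% in wild-type spermatozoa, while the *Tssk1* share narrows. In condensing spermatids the *Tssk6* share is 30.5% to 32.4% in wild-type and 28.1% to 33.6% in *H2al2* KO.

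Across the 21 libraries the members did not all vary alike. Pearson's r of log2(CPM + 1) was 0.98 between *Tssk1* and *Tssk4*, 0.98 between *Tssk4* and *Tssk5* and 0.95 between *Tssk1* and *Tssk5*. It was 0.97 between *Tssk2* and *Tssk3* and 0.87 between *Tssk3* and *Tssk6*, but 0.16 between *Tssk1* and *Tssk6* and 0.73 between the neighbours *Tssk1* and *Tssk2*. These values describe libraries that share fractions and scaling and are not independent. Among 15100 other genes with a mean of at least 1 CPM, those most like *Tssk2* were *Spert* (r = 0.999), *Actl11* (an actin-like gene) and *Tsks*, the gene of its own substrate (both 0.998). Those most like *Tssk1* were *D11Wsu47e*, *Tbata* and *Ccer1* (0.995 to 0.997), and those most like *Tssk4* were *Vwa5b1*, *Catsper1* (a subunit of the sperm calcium channel) and *Tmc7* (0.994 to 0.996). *Nbr1* (an autophagy receptor), *4933411K16Rik* and *Slc30a4* (a zinc transporter) were closest to *Tssk3* (0.994 to 0.996), *Fancd2os*, *Tex36* and *Got1l1* to *Tssk5* (0.985 to 0.989), and *1700012A03Rik*, *Neurl1a* and *Csnk1g2* (a casein kinase) to *Tssk6* (0.993 to 0.994).

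Of 8 genes for substrates and partners of the kinases, 3 rose and 2 fell from wild-type pachytene spermatocytes to round spermatids, where 34.4% of all genes were called higher and 35.9% lower. *Tsks* measured 142, 158 and 70.7 CPM in wild-type pachytene spermatocytes, 600, 599 and 614 in round spermatids, 575, 542 and 710 in condensing spermatids, and 356 and 371 in spermatozoa. It rose by 2.33 on the log2 scale at the first step (edgeR adjusted p = 1.51e-06) and was not called at the second, and the wild-type libraries of all 4 fractions held 0.967 to 1.17 *Tssk2* reads per *Tsks* read. *Odf2* rose by 1.44 and *Tsacc* by 1.06 on the log2 scale at the first step, and neither was called at the second. *Hspa8* and *Hsp90ab1*, both cytosolic chaperones, fell by 1.14 and 0.93 on the log2 scale at the first step. *Hsp90aa1* (log2 fold change -0.32), *Ppp1cc*, a phosphatase catalytic subunit (0.12), and *Spag16*, a protein of the axoneme and a TSSK2 substrate (0.01), were not called there. At the second step *Hspa8* rose by 0.63 and *Ppp1cc* fell by 0.43 on the log2 scale.

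In wild-type spermatozoa against condensing spermatids all 8 partner genes were called, where 36.6% of 15116 genes were called higher and 35.8% lower. *Hspa8* rose by 2.25, *Hsp90ab1* by 1.68 and *Spag16* by 1.20 on the log2 scale. *Hsp90aa1* fell by 2.06, *Ppp1cc* by 1.62, *Tsacc*, whose product acts with TSSK6, by 1.51, *Odf2* by 0.89 and *Tsks* by 0.70. *Tsacc* averaged 86.8 CPM in wild-type condensing spermatids and 29.3 CPM in spermatozoa, the direction opposite to *Tssk6*.

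Other kinase genes moved in both directions at the first step, to be read against the same 34.4% and 35.9% over all genes. Of 18 genes of the AMP-activated kinase branch outside the family, all tested, 9 were called higher and 2 lower in wild-type round spermatids, with a median log2 fold change of 0.32. The largest rises were *Sik1* (2.31), *Prkaa2*, a catalytic subunit of AMP-activated kinase (1.47), and *Nim1k* (0.94), and the falls were *Mark2* (-3.65) and *Mark1* (-1.79). Of 24 further kinase genes with known roles or expression in germ cells, 22 were tested, 11 were called higher and 7 lower, with a median of 0.32. *Camk4* (2.25), *Csnk1g2* (2.20) and *Dyrk4* (1.95) rose most, and *Cdk2*, a meiotic cyclin-dependent kinase (-3.44), *Mapk15* (-1.44) and *Stk31* (-1.38) fell most. At the second step 3 of the 18 were higher and 6 lower, and 5 of the 22 higher and 8 lower, against 28.3% and 21.8% of all genes.

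The study design also compares *H2al2* KO with wild-type within each fraction. None of the 6 members was called in pachytene spermatocytes, round spermatids or condensing spermatids by edgeR or by DESeq2, and none had an unadjusted p below 0.05. The share of all genes called by edgeR was 0% of 12236, 0.0156% of 12804 and 0.00728% of 13734, and 6.66%, 5.88% and 6.33% had an unadjusted p below 0.05. *H2afb1* itself was called in round spermatids (log2 fold change -3.10) and condensing spermatids (-2.71). It was not called in pachytene spermatocytes (-2.75, edgeR adjusted p = 0.484), so that the test there missed a fall of this size. None of the 8 partner genes was called in any of the 3 fractions, and none of the branch relatives (15, 16 and 18 of 18 tested) or of the other kinase genes (21, 22 and 22 of 24 tested).

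In *H2al2* KO round spermatids *Tssk1* measured 416, 414 and 368 CPM, *Tssk2* 665, 703 and 582 CPM, and *Tssk6* 323, 320 and 217 CPM. Replicate 3 was lowest for these 3 genes, and all 3 overlapped wild-type. *Tssk3* measured 253, 263 and 222 CPM, *Tssk4* 151, 171 and 151 CPM, and *Tssk5* 19.8, 25.3 and 21.7 CPM, also overlapping wild-type. Replicate 3 was lowest for *Tssk3* as well. Elongating spermatid markers summed to 26880, 30684 and 23787 CPM in replicates 1, 2 and 3, and their part in these values was not tested. The log2 fold changes lay between -0.05 (*Tssk3*) and 0.11 (*Tssk5*), and the 95% confidence intervals of *Tssk1* to *Tssk4* stayed within -0.24 and 0.18, of *Tssk6* within -0.33 and 0.25 and of *Tssk5* within -0.18 and 0.40.

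In *H2al2* KO condensing spermatids *Tssk4* measured 81.7, 82.8 and 87.8 CPM, all above the 3 wild-type values, of which the highest was 80.5 CPM. It was the only member whose genotypes did not overlap in any of the 3 fractions, where 11.4% of genes in pachytene spermatocytes, 9.86% in round spermatids and 12.1% in condensing spermatids (6.6% higher in the *H2al2* KO) did not overlap. Its log2 fold change was 0.22 (95% confidence interval -0.02 to 0.45, edgeR adjusted p = 0.831). The 8 round spermatid markers were likewise without overlap here, at a summed 726 to 751 CPM in the *H2al2* KO and 580 to 692 CPM in wild-type, and the part of round spermatids in the *Tssk4* values was not tested. *Tssk6* measured 459, 628 and 790 CPM in the *H2al2* KO, *Tssk3* 323, 390 and 493 CPM and *Tssk2* 541, 601 and 717 CPM, and each overlapped wild-type. Elongating spermatid markers summed to 26338, 30764 and 39572 CPM in the same replicates, and their part in these values was not tested. *Tssk1* measured 252, 261 and 293 CPM and *Tssk5* 9.64, 12.9 and 8.45 CPM, which also overlapped. Log2 fold changes of these 5 lay between -0.05 and 0.08, with the widest interval for *Tssk5* (-0.46 to 0.36).

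In *H2al2* KO pachytene spermatocytes *Tssk3* measured 31.7, 30.2 and 29.3 CPM and *Tssk6* 42.2, 34.1 and 39.0 CPM. Both genes lay below wild-type replicates 1 and 2 and above replicate 3. Their log2 fold changes were -0.41 (95% confidence interval -0.94 to 0.12) and -0.38 (-0.96 to 0.19). Without wild-type replicate 3 both were called lower in the *H2al2* KO (log2 fold changes -0.66 and -0.65, edgeR adjusted p 0.0446 for each). That fit called 243 genes in all, where the fit with this replicate called 0 of 12236. Elongating spermatid markers summed to 2934 to 3190 CPM in the *H2al2* KO, likewise between wild-type replicate 3 and the other 2, and their part in these differences was not tested. *Tssk1* measured 91.3, 90.0 and 84.5 CPM, *Tssk2* 117, 101 and 97.4 CPM and *Tssk4* 41.0, 41.3 and 39.9 CPM, each also between wild-type replicate 3 and the other 2. *Tssk5* measured 6.37, 6.66 and 5.88 CPM, within the wild-type range.

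**Figure D4:**
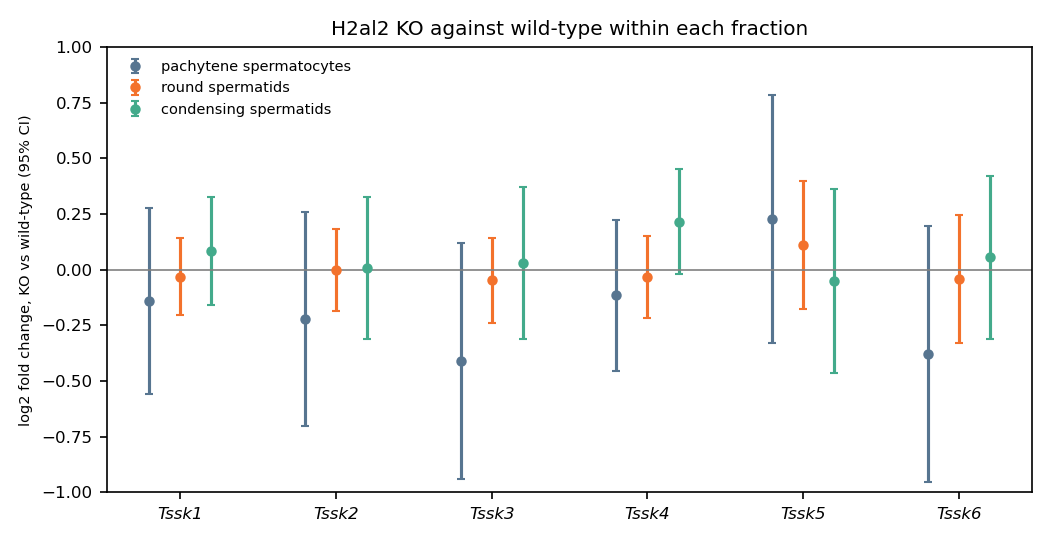
Log2 fold change of each kinase gene in *H2al2* KO against wild-type within pachytene spermatocytes, round spermatids and condensing spermatids, with 95% confidence intervals from edgeR (3 libraries against 3). Every interval includes 0, and the intervals are widest in pachytene spermatocytes.

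Differences in the effect of the *H2al2* KO between fractions were tested as interaction terms on 18 libraries. None of the 6 members was called for round against pachytene (edgeR adjusted p 0.734 to 0.939) or for condensing against round (0.9998 for each), none had an unadjusted p below 0.05, and DESeq2 called none. Over all genes, 0% of 14479 were called in either term, and 7.25% and 2.81% had an unadjusted p below 0.05. Leaving out replicate 3 of every group, *Tssk2* (0.56), *Tssk3* (0.78) and *Tssk6* (0.88) were called in the round against pachytene term on the log2 scale (edgeR adjusted p 0.0374, 0.017 and 0.0199). That fit called 731 genes in all, where the fit with every replicate called 0 of 14479.

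The single *H2al2* KO library of spermatozoa allows no test. It held 443 CPM of *Tssk6* against 1617 and 1282 CPM in wild-type, 134 CPM of *Tssk2* against 415 and 359 CPM, and 82.2 CPM of *Tssk3* against 188 and 188 CPM. These 3 were lower than in both wild-type libraries, and the share of all genes lower than both was not determined. *Tssk4* measured 14.9 CPM on 49 reads, against 16.0 and 16.6 CPM on 55 and 48 reads. *Tssk1* (35.6 CPM) lay between the wild-type libraries. *Tssk5* had 3 reads. In the same library the elongating spermatid markers summed to 10625 CPM against 27687 and 30940 CPM, and the macrophage markers to 1076 CPM against 242 and 245 CPM. Genotype and the makeup of this library cannot be told apart.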

How the data were processed

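Per the labels, RNA depleted of ribosomal RNA was sequenced (paired-end, stranded) from purified spermatogenic cell fractions. The authors aligned reads to mm10 with STAR 2.7.11b, counted them with HTSeq over exons with strand and without multiply aligned reads, and deposited raw counts per gene and library, not normalized or pooled. Rows that name no gene held 34.6% to 57.7% of counted reads and were left out.

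Groups came from the labels. Each stage was tested with edgeR 4.0.16 (R 4.3.3; TMM, filterByExpr, quasi-likelihood test, Benjamini-Hochberg at 0.05): *H2al2* KO against wild-type on 6 libraries, stage steps on 9 libraries of 1 genotype, interactions on 18, spermatozoa on 5. Alternatives were DESeq2 1.42.0, other scalings and filters, joint fits, a replicate block and each library left out. The tests were tried on simulated counts.

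Named genes were the 6 members, all partner genes, up to 3 genes per direction of 2 kinase lists by the first step, overlapping genes, and 3 most correlated genes per member. The members and lists were chosen with earlier results of these data known. Promoters came from RefSeq.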

Additional observations from a re-analysis of the deposited data

How the results depend on the processing

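Of 749 recomputed values for single members, 700 had the same direction and the same call, 5 passed the threshold, 7 lost it and 37 changed sign, all of the last in *H2al2* KO comparisons or interactions with no call, or for *Tssk2* in the condensing against round step of the *H2al2* KO. Leaving out 1 library at a time (in the interactions, 1 replicate number of every group), the number of members called ranged from 0 to 2 in *H2al2* KO against wild-type pachytene spermatocytes (2 without wild-type replicate 3), from 0 to 3 in the round against pachytene interaction (3 without replicate 3), from 4 to 5 in the wild-type condensing against round step (the call of *Tssk3*) and from 5 to 6 in wild-type spermatozoa against condensing spermatids (the call of *Tssk2*), and was 6 of 6 in both round against pachytene steps. Over all genes, the pachytene fit without wild-type replicate 3 called 243 and the interaction fit without replicate 3 called 731. Scaling by library size alone moved the median log2 fold change of all genes to -0.20 and -0.15 in the wild-type and *H2al2* KO round against pachytene steps and to 0.11 in the wild-type condensing against round step, and changed no member's call. *Tssk5* was not tested in spermatozoa when 10 counts were required in every library.

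The log2 fold change of *Tssk2* in *H2al2* KO round spermatids, -7.63e-05, became 0.00147 with DESeq2, 0.0115 with library size only, 0.00962 without a filter, 0.00625 with 18 libraries in 1 fit and 0.00608 with wild-type round replicates 2 and 3 summed, which was added after seeing the data. With library size only it was -0.0197 in condensing spermatids and -0.0312 in the condensing against round interaction. The cause was not tested.

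In the same way, log2 fold changes that changed sign in *H2al2* KO pachytene spermatocytes ranged from -0.34 to 0.019 for *Tssk1* and from -0.25 to 0.0099 for *Tssk4*. In round spermatids they ranged from -0.056 to 0.025 for *Tssk1*, -0.059 to 0.074 for *Tssk2*, -0.10 to 0.023 for *Tssk3*, -0.089 to 0.0073 for *Tssk4* and -0.13 to 0.12 for *Tssk6*. In condensing spermatids they ranged from -0.10 to 0.17 for *Tssk2*, -0.14 to 0.19 for *Tssk3*, -0.25 to 0.077 for *Tssk5* and -0.14 to 0.24 for *Tssk6*. In the round against pachytene interaction they ranged from -0.077 to 0.44 for *Tssk1*, -0.0071 to 0.56 for *Tssk2*, -0.11 to 0.32 for *Tssk4*, -0.43 to 0.091 for *Tssk5* and -0.019 to 0.88 for *Tssk6*. In the condensing against round interaction they ranged from -0.0038 to 0.059 for *Tssk2*, -0.023 to 0.23 for *Tssk3* and -0.13 to 0.28 for *Tssk6*, and for *Tssk2* in the condensing against round step of the *H2al2* KO from -0.16 to 0.021.

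Same-numbered wild-type and *H2al2* KO libraries did not deviate together (correlations of -0.13 to 0.16), and 5 of 18 libraries correlated best with their own number. With the replicate number as a block, 0 members were called in each *H2al2* KO comparison and interaction, 6 in each round against pachytene step and 5 in each condensing against round step, as without it. The spermatozoa comparison was not fitted with a block.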
